A study of Bos grunniens with 12 samples.

Results

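Molecular chaperones of the heat shock and DnaJ families were examined in the testis of domesticated yak (Bos grunniens) at 2 ages. Members were all rows of the deposited expression table whose gene symbol began with HSPA, HSPB, HSPD, HSPE, HSPH, HSP90, DNAJA, DNAJB or DNAJC, which gave 77 of 20953 gene identifiers. Testes came from 3 yaks of 1.5 years (the Y group of the study, called before sexual maturity) and 3 yaks of 5 years (the M group, called after it), and each testis gave an m6A immunoprecipitation library and an input library, 12 libraries in all. Testes were removed by castration at 1.5 years and after euthanasia at 5 years, so age and the way of collection cannot be told apart. The labels name no breed, treatment or genetic change for either group, and the libraries were made from poly(A) RNA of whole testicular tissue. Groups follow the ages that stand in the sample titles, because the record's developmental stage entry contradicts them in both groups. The direction of every difference given here rests on these titles and would turn if they were exchanged. Expression values are FPKM (mapped fragments divided by transcript length and by the size of the library) of the 6 input libraries, which can be compared between genes because they are set per length.

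Hsp70 proteins, encoded by the HSPA genes, bind stretches of unfolded protein and release them in a cycle driven by ATP. DnaJ proteins (DNAJA, DNAJB and DNAJC) deliver clients to Hsp70 and stimulate its ATP hydrolysis through a J domain, Hsp110 proteins such as HSPH1 and HSPA4 exchange its nucleotide, and Hsp90 takes over partly folded clients such as kinases and steroid receptors. Male germ cells are known for their own Hsp70 forms, among them HSPA2 of spermatocytes and HSPA1L of spermatids, which are made without heat stress.

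The 77 identifiers carried 55 symbols, and 16 of the symbols stood on more than 1 identifier. The GO terms in the table showed that a repeated symbol often sat on an unrelated gene. Of the first identifiers of a symbol that had GO terms, 24 of 53 had a term with a chaperone word, against 1 of 19 repeat identifiers. The second DNAJB14 identifier (ENSBGRG00000002496) had the GO terms nucleosome and DNA binding, and a DNAJC6 identifier (ENSBGRG00000013984) had the term structural constituent of ribosome. In the differential peak table, which gives positions, 12 of the 13 symbols on several identifiers had them all on 1 chromosome, with a median of 140931 bp between gene starts. The 55 first identifiers are therefore described as the chaperone genes, and the 22 repeat identifiers are given by identifier only. Among the first identifiers, 8 had the GO term RNA-directed DNA polymerase activity, HSPA4L among them. HSPBP1 and HSPBAP1 also start with HSPB, but they are binding partners of Hsp70 and of a small heat shock protein, not small heat shock proteins.

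The FPKM of an input library summed to 133504 to 139921 at 1.5 years and to 116187, 131024 and 129070 in replicates 1, 2 and 3 at 5 years, and the first identifiers held 0.932% to 0.994% and 0.971% to 1.07% of these sums. The fragments behind a value are not in the table, so no limit was set for a value of 0. The steps between low values put the value of 1 fragment at -0.14 to 0 on the log2 scale relative to the first library, so the libraries were of similar depth. Replicate 1 of the 5-year group stood apart: its log2 values correlated across genes at 0.868 and 0.923 with the other 5-year libraries and at 0.817 to 0.837 with the 1.5-year libraries. Replicate 2 of the 5-year group correlated at 0.942 to 0.947 with the 1.5-year libraries. Of the 45 first identifiers tested, replicate 1 was farthest from the 1.5-year mean in 30 and replicate 2 was nearest in 29, which is 66.7% and 64.4%, against 68.5% and 62.1% of all genes tested.

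Cell type markers moved with age across the same libraries. The 6 elongating spermatid markers in the table summed to 1433, 1360 and 1378 FPKM at 1.5 years and to 314, 994 and 875 FPKM at 5 years, and 5 of the 6 were lower at 5 years at an unadjusted p under 0.05. TNP1, a protein that packs spermatid DNA, made up most of these sums and stood at 852 to 883 FPKM at 1.5 years and at 201, 641 and 550 FPKM at 5 years. Spermatid RNA was thus abundant in the libraries whose titles give 1.5 years. Whether these titles name the right ages was not tested. Round spermatid markers were lower in 4 of 5. Sertoli cell markers were higher in 6 of 6, with sums of 73.4 to 85.7 FPKM at 1.5 years and of 254, 107 and 133 FPKM at 5 years. INHA made up most of these sums, with 56.4 to 65.2 FPKM at 1.5 years and 211, 81.2 and 100 FPKM at 5 years. Peritubular and stromal markers were higher in 6 of 7. None of the 8 spermatocyte or 6 spermatogonial markers passed. Of the macrophage markers 2 of 6 were higher and 1 was lower, of the Leydig cell markers 1 of 2 was lower, of the endothelial markers 0 of 4 passed, and ALAS2, the only erythroid marker with a row, was listed at 0 in every library. At the unadjusted threshold, 14.2% of all genes tested were higher and 10.9% were lower. No marker passed the Benjamini-Hochberg adjustment over all genes (limma, lowest adjusted p = 0.154). In whole tissue, fewer cells of a type and less RNA per cell cannot be told apart, and the part of cell makeup in the results that follow was not tested.

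At an unadjusted p under 0.05 (limma on log2(FPKM + 0.1), two-sided), 6 members were higher and 7 were lower at 5 years, and 44 of the 57 members tested did not pass. Over all 12437 genes tested, 25.1% passed, 14.2% higher and 10.9% lower, against 10.5% and 12.3% of the members. With the Benjamini-Hochberg adjustment over all genes, 0 members passed (lowest adjusted p = 0.154), beside 4 of all genes (0.0322%). The 2 ages did not overlap, with every 5-year library above every 1.5-year library, in 13 members (22.8%, against 19.8% of all genes), and in the other direction in 13 members (22.8%, against 13.9%). With the same FPKM sum in every library these counts were 18 and 9. The median log2 fold change (5 over 1.5 years) was 0.04 both for the members and for all genes. The split into 6 higher and 7 lower moved to 12 and 7 when every library was set to the same FPKM sum, and to 5 and 12 after trimmed mean scaling. Leaving out a single library gave 2 to 11 higher and 4 to 12 lower members. Without replicate 2 of the 5-year group there were 11 higher and 12 lower members, and 11 of 58 members (19.0%) and 20.3% of all genes passed the adjustment.

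Restricted to first identifiers, 4 of 45 genes were higher (8.89%, against 14.2% of all genes) and 6 were lower (13.3%, against 10.9%) at the unadjusted threshold. The 4 higher genes were HSPA8, HSP90AB1, HSPD1 and DNAJC5. The 6 lower genes were HSPA1L, HSPA4L, DNAJA4, DNAJB4, DNAJB7 and DNAJB13. All 10 kept their direction under every scaling tried. The ages did not overlap in any of the 10, so leaving out a single library could not change their direction.

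**Figure D1:**
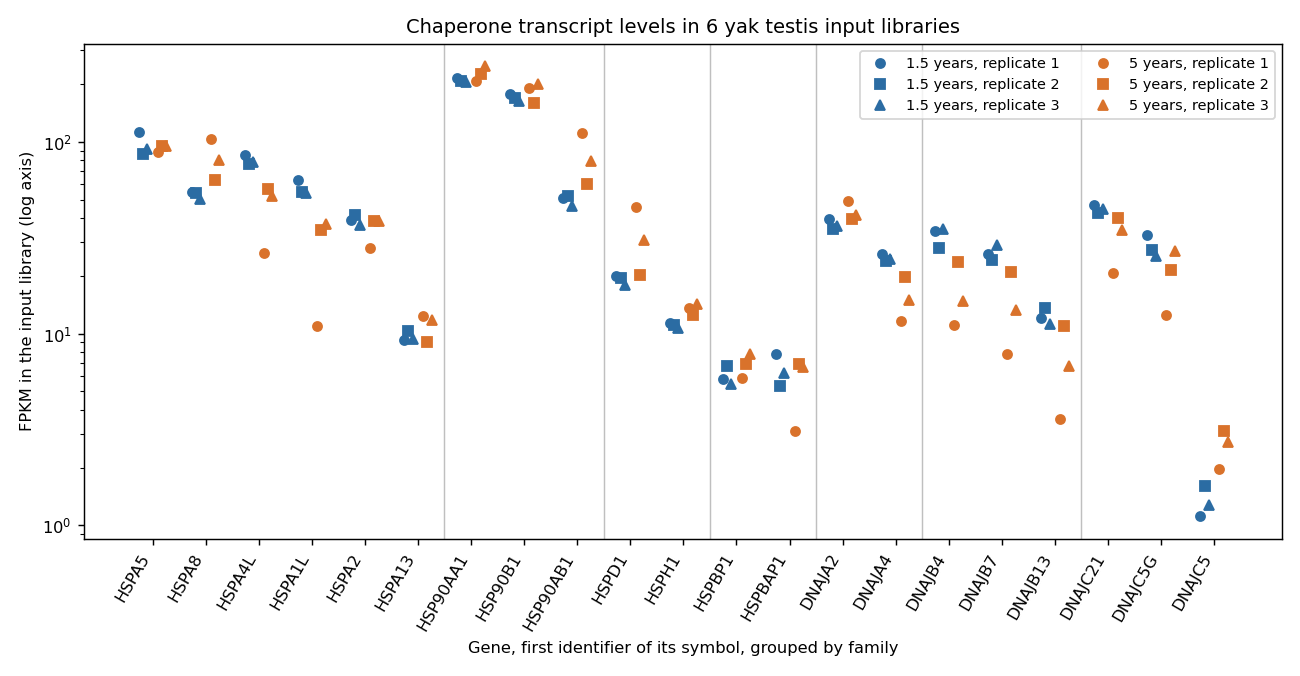
FPKM (log axis) of the named first identifiers in each of the 6 input libraries, grouped by family, with blue for 1.5 years, orange for 5 years and the marker shape for the replicate. HSP90AA1 and HSP90B1 had the highest levels, and replicate 1 at 5 years was the lowest library for HSPA1L (11.01 FPKM) and the highest for HSPA8 (103 FPKM).

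In the Hsp70 family, 1 of 8 genes tested was higher (12.5%, against 14.2% of all genes) and 2 were lower (25%, against 10.9%). The other 5 did not pass, the most abundant one, HSPA5, among them. HSPA1L (ENSBGRG00000017307), the Hsp70 form of spermatids, stood at 63.4, 54.7 and 54.4 FPKM at 1.5 years and at 11.01, 34.6 and 37.3 FPKM at 5 years. All 5-year libraries were below all 1.5-year libraries, and replicate 1 was the lowest by a wide margin. The log2 fold change was -1.24 (SE 0.44, unadjusted p = 0.0265, adjusted p = 0.168). It was -0.67 without replicate 1 of the 5-year group, and the unadjusted p was 0.0702, 0.0549 and 0.0556 without 1.5-year replicate 1, 2 or 3.

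HSPA4L (ENSBGRG00000009049), an Hsp110-type nucleotide exchange factor abundant in testis, also had replicate 1 lowest at 5 years, with 85.1, 77.0 and 78.7 FPKM at 1.5 years and 26.2, 56.5 and 52.0 FPKM at 5 years. Its log2 fold change was -0.91 (SE 0.29, unadjusted p = 0.0168). The GO terms of this identifier include RNA-directed DNA polymerase activity and hold no chaperone word, so its name rests on the symbol. The change was -0.56 without replicate 1 of the 5-year group, and the unadjusted p was 0.0509 without replicate 1 of the 1.5-year group.

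HSPA8 (ENSBGRG00000014719), the constitutive Hsp70 of the cytosol, was higher at 5 years. Its values were 55.0, 53.9 and 50.3 FPKM at 1.5 years and 103, 63.3 and 80.5 FPKM at 5 years, without overlap and with replicate 1 highest. The log2 fold change was 0.60 (SE 0.20, unadjusted p = 0.0207). Without 1.5-year replicate 1, 2 or 3 or 5-year replicate 3, the unadjusted p was 0.0503, 0.0556, 0.0706 and 0.0557.

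The other HSPA genes did not pass. HSPA5, the Hsp70 of the endoplasmic reticulum, had 112, 86.6 and 91.2 FPKM at 1.5 years and 88.6, 94.7 and 94.7 FPKM at 5 years. Its log2 fold change of -0.05 (unadjusted p = 0.759) lay within the spread and changed sign with the scaling, to 0.19 after quantile normalization. HSPA2, the spermatocyte Hsp70, had 39.1, 41.7 and 36.7 FPKM and 28.0, 38.5 and 38.8 FPKM, so only replicate 1 was low, and its change of -0.17 (unadjusted p = 0.357) became 0.05 after quantile normalization.

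HSPA9, the Hsp70 of mitochondria, and HSPA4, an Hsp110, were each higher in all 5-year than in all 1.5-year libraries, with log2 fold changes of 0.24 (unadjusted p = 0.121) and 0.27 (unadjusted p = 0.133). HSPA13 (ENSBGRG00000000025), a microsomal Hsp70 that lacks the substrate-binding domain, had 9.27, 10.3 and 9.33 FPKM at 1.5 years and 12.3, 9.003 and 11.8 FPKM at 5 years. The ages overlapped, since replicate 2 at 5 years was the lowest of all, and the log2 fold change was 0.18 (SE 0.16, unadjusted p = 0.297). It was 0.10 without 5-year replicate 1 and 0.32 without 5-year replicate 2 (unadjusted p = 0.0583). HSPA6, HSPA12A and HSPA12B stayed under the mean of 0.5 FPKM needed for a test, at means of 0.474, 0.410 and 0.478 FPKM. HSPA12A had 0.295 to 0.323 FPKM at 1.5 years and 0.439 to 0.616 FPKM at 5 years, and the ages overlapped in HSPA6 and HSPA12B.

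The 3 Hsp90 genes were the most abundant family. HSP90AA1, the inducible Hsp90 that is also strongly expressed in male germ cells, stood at 216, 207 and 205 FPKM at 1.5 years and at 207, 226 and 247 FPKM at 5 years, with a log2 fold change of 0.11 (unadjusted p = 0.534). HSP90B1 (ENSBGRG00000020036), the Hsp90 of the endoplasmic reticulum, had 178, 169 and 164 FPKM and 189.8, 159 and 199.6 FPKM, a log2 fold change of 0.10 (unadjusted p = 0.596). In both genes the ages overlapped.

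HSP90AB1 (ENSBGRG00000007091), the constitutive Hsp90 of the cytosol, was higher at 5 years, with 51.2, 52.4 and 46.1 FPKM at 1.5 years and 111, 60.5 and 79.1 FPKM at 5 years. The ages did not overlap, and the log2 fold change was 0.70 (SE 0.24, unadjusted p = 0.0201, adjusted p = 0.161). Without replicate 3 of the 1.5-year group the unadjusted p was 0.0691. This identifier has a single GO term, integral component of membrane, and is 1 of the 29 first identifiers with GO terms but no chaperone word among them. The 3 genes together held 0.302% to 0.321% of a library's FPKM at 1.5 years and 0.437%, 0.340% and 0.407% at 5 years.

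HSPD1, the Hsp60 chaperonin of mitochondria, had 19.9, 19.4 and 18.0 FPKM at 1.5 years and 45.8, 20.2 and 30.9 FPKM at 5 years. The ages were separated only narrowly, by replicate 2. Its log2 fold change was 0.68 (SE 0.28, unadjusted p = 0.0471). It passed the threshold in 1 of 6 fits that left out a library, the one without 5-year replicate 2, and the p without the others was 0.0858, 0.0935 and 0.116 (1.5-year replicates 1, 2 and 3) and 0.0837 and 0.101 (5-year replicates 1 and 3). Without 5-year replicate 1 the change was 0.39. With all libraries kept, the call was also lost after trimmed mean scaling (unadjusted p = 0.064) and in the fit without trend (unadjusted p = 0.0591). HSPH1, the Hsp110 partner of Hsp70, had 10.7 to 11.3 FPKM at 1.5 years and 13.6, 12.6 and 14.2 FPKM at 5 years, a log2 fold change of 0.28 (unadjusted p = 0.0612). It passed with no filter, after quantile normalization, with the same FPKM sum and without 5-year replicate 2 (unadjusted p = 0.0457, 0.0268, 0.0192 and 0.0471).

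The small heat shock proteins with an HSPB symbol, which hold unfolded proteins without ATP, were at low levels. Of these 5 genes, only HSPB6 was tested, with 1.46, 2.65 and 1.72 FPKM at 1.5 years and 1.38, 0.937 and 1.31 FPKM at 5 years (log2 fold change -0.62, unadjusted p = 0.0598). HSPB3, HSPB7, HSPB8 and HSPB11 had means of 0.019 to 0.406 FPKM. HSPB3 had 0.124 to 0.408 FPKM at 1.5 years and was listed at 0 in every 5-year library, and the ages overlapped in the others. The binding partners HSPBP1 and HSPBAP1 had log2 fold changes of 0.19 (unadjusted p = 0.299) and -0.28 (unadjusted p = 0.415), and the latter was 0.09 without replicate 1 of the 5-year group.

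**Figure D2:**
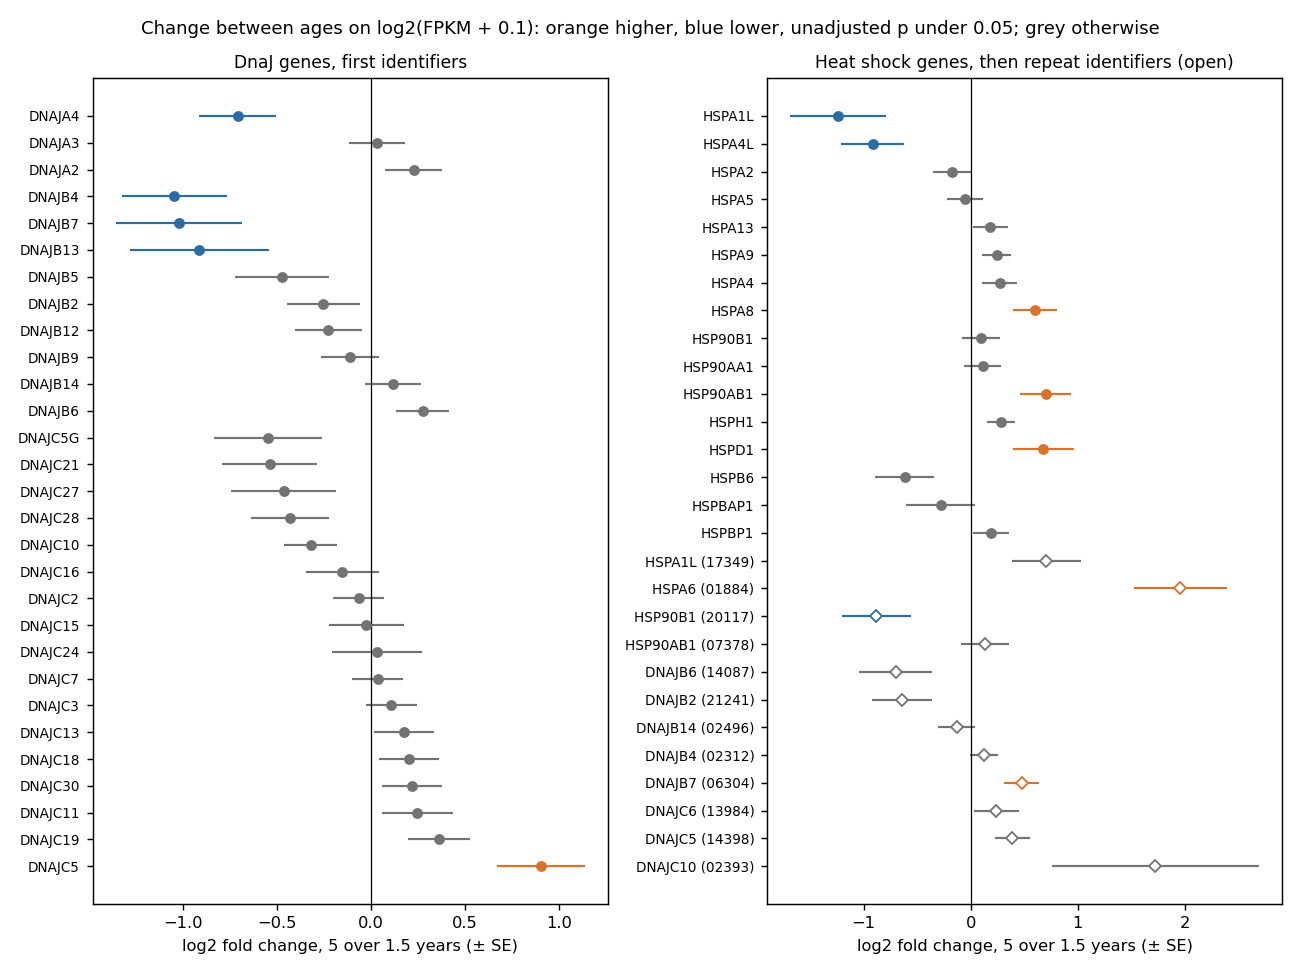
Log2 fold change of 5 over 1.5 years with its standard error, for the tested DnaJ genes (left) and for the tested heat shock genes followed by the tested repeat identifiers (right, open symbols, last digits of the identifier in parentheses). Orange and blue mark higher and lower genes at an unadjusted p under 0.05, and grey marks the rest. The 3 lowest DNAJB genes lie between -1.04 and -0.91, and DNAJC5 is the only DnaJ gene in orange among the first identifiers.

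Among the DnaJ genes, 1 of 29 first identifiers tested was higher (3.45%, against 14.2% of all genes) and 4 were lower at 5 years (13.8%, against 10.9%). The lower genes lay in the DNAJA and DNAJB families, which hold the general cochaperones of Hsp70. DNAJB genes had a median log2 fold change of -0.25 over the 9 members, with 3 lower (33.3%, against 10.9% of all genes) and 0 higher (against 14.2%). None of them passed the adjustment. The 9 genes together held 0.105% to 0.108% of the library's FPKM at 1.5 years and 0.0675%, 0.1003% and 0.0818% at 5 years.

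DNAJB4 (ENSBGRG00000002265), a cytosolic partner of Hsp70, had 34.4, 28.1 and 35.1 FPKM at 1.5 years and 11.03, 23.5 and 14.7 FPKM at 5 years. The ages did not overlap, and the log2 fold change was -1.04 (SE 0.28, unadjusted p = 0.00664, adjusted p = 0.154). It passed the unadjusted threshold in all 6 fits that left out a library.

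DNAJB7 (ENSBGRG00000006284), a DnaJ gene known mainly from testis, had 26.02, 24.3 and 29.0 FPKM at 1.5 years and 7.78, 20.9 and 13.3 FPKM at 5 years. Its log2 fold change was -1.02 (SE 0.33, unadjusted p = 0.0177). Without 5-year replicate 1 it was -0.66, and without 1.5-year replicate 3 the unadjusted p was 0.0554.

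DNAJB13 (ENSBGRG00000004694), a radial spoke protein of the sperm axoneme, had 12.0, 13.7 and 11.2 FPKM at 1.5 years and 3.58, 11.01 and 6.81 FPKM at 5 years, with the groups separated by little. Its log2 fold change was -0.91 (SE 0.37, unadjusted p = 0.0425). It passed in 1 of 6 fits that left out a library, the one without 5-year replicate 2, and the p without the others was 0.0837, 0.109 and 0.0707 (1.5-year replicates 1, 2 and 3) and 0.0629 and 0.0788 (5-year replicates 1 and 3). Without 5-year replicate 1 the change was -0.50, and in the fit without trend the unadjusted p was 0.0535.

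The other DNAJB genes did not pass. DNAJB5 and DNAJB2 had log2 fold changes of -0.47 (unadjusted p = 0.097) and -0.25 (unadjusted p = 0.236). DNAJB12 and DNAJB9, both DnaJ proteins of the endoplasmic reticulum, had -0.23 (unadjusted p = 0.242) and -0.11 (unadjusted p = 0.489), and DNAJB14 and DNAJB6 had 0.12 (unadjusted p = 0.451) and 0.27 (unadjusted p = 0.0936).

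In the DNAJA family, DNAJA4 (ENSBGRG00000018447) was lower, with 25.96, 23.8 and 24.6 FPKM at 1.5 years and 11.7, 19.8 and 15.0 FPKM at 5 years. Its log2 fold change was -0.71 (SE 0.21, unadjusted p = 0.0103), and it passed the unadjusted threshold in all 6 fits that left out a library. DNAJA2, the cytosolic relative with the highest level of the family, had 39.5, 34.9 and 36.4 FPKM and 48.9, 39.5 and 41.7 FPKM, a log2 fold change of 0.23 (unadjusted p = 0.175, and 0.0463 after quantile normalization). DNAJA3, the mitochondrial member, had a change of 0.03 (unadjusted p = 0.835).

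The DNAJC genes, whose products tie the J domain to tasks such as protein import or vesicle cycling, had a median log2 fold change of 0.03 over 17 tested. DNAJC5, the cysteine string protein of secretory vesicles, had 1.12, 1.60 and 1.28 FPKM at 1.5 years and 1.97, 3.10 and 2.71 FPKM at 5 years. The ages did not overlap, replicate 2 was the highest here, and the log2 fold change was 0.90 (SE 0.23, unadjusted p = 0.00593). It passed the unadjusted threshold in all 6 fits that left out a library.

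DNAJC21, a ribosome biogenesis factor and the most abundant DNAJC gene, had 46.6, 42.3 and 44.6 FPKM and 20.6, 40.0 and 34.6 FPKM, a log2 fold change of -0.54 (unadjusted p = 0.0691). It had -0.26 without 5-year replicate 1, and it passed without 5-year replicate 2 (-0.73, unadjusted p = 0.0193) and after trimmed mean scaling (unadjusted p = 0.048). DNAJC5G, a relative of the cysteine string protein known from testis, had 32.7, 27.3 and 25.4 FPKM and 12.5, 21.5 and 26.9 FPKM, with overlap and a log2 fold change of -0.55 (unadjusted p = 0.0954). It had -0.23 without 5-year replicate 1 and -0.79 without 5-year replicate 3 (unadjusted p = 0.0291). DNAJC10, a disulfide reductase of the endoplasmic reticulum, and DNAJC28 were lower in all 5-year libraries, at -0.32 (unadjusted p = 0.0562) and -0.43 (unadjusted p = 0.0775). DNAJC6, DNAJC12 and DNAJC22 had means under 0.5 FPKM and were not tested.

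Pairs of related chaperones were set against each other within each library, which does not depend on the scaling of the library. HSPA1L and HSPA8 stood at a ratio of 1.15, 1.01 and 1.08 at 1.5 years and of 0.107, 0.546 and 0.464 at 5 years, so the spermatid form equalled the constitutive form at 1.5 years and lay below it in each 5-year library. The ratio of HSPA4L to HSPA4 was 4.92, 4.32 and 4.48 at 1.5 years and 1.04, 3.10 and 2.51 at 5 years.

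The ratio of HSPA2 to HSPA8 was 0.711, 0.774 and 0.730 and then 0.272, 0.607 and 0.482. HSP90AA1 over HSP90AB1 gave 4.21, 3.96 and 4.46 and then 1.87, 3.74 and 3.12. DNAJA4 over DNAJA2 gave 0.657, 0.683 and 0.677 and then 0.238, 0.501 and 0.360. None of the 5 ratios overlapped between the ages, and replicate 1 was the lowest and replicate 2 the highest 5-year library in each. The exact permutation test (two-sided) gave p = 0.1 for each, adjusted p = 0.1 over the 5, which is the smallest p that 3 against 3 animals allow. For HSPA1L over HSPA8 and HSPA4L over HSPA4 this p was fixed beforehand. The genes of each of these pairs were already separated by age in opposite directions, so the test adds nothing there. The pairs were chosen after the values had been seen, and a ratio shows unequal change, not which gene moved.

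**Figure D3:**
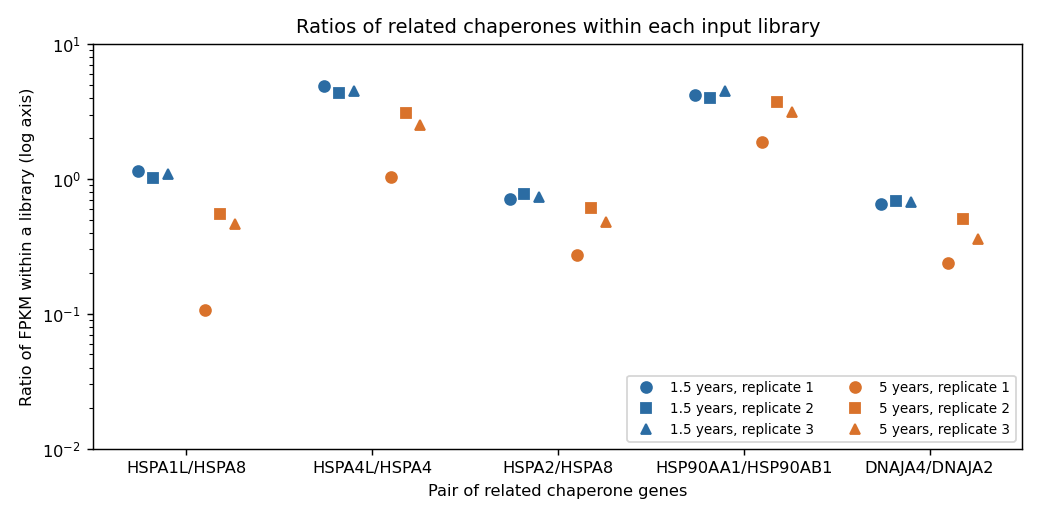
Ratio of FPKM of 2 related chaperone genes within each input library (log axis), with blue for 1.5 years, orange for 5 years and the marker shape for the replicate. In all 5 pairs the 3 orange points lie below the 3 blue points, from 0.107 for HSPA1L over HSPA8 in replicate 1.

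Replicate 1, the 5-year library that stood farthest off in most of these genes, also stood farthest off in the sums of elongating spermatid and Sertoli cell markers. In the endothelial markers replicate 3 was farthest, with sums of 7.09 to 9.39 FPKM at 1.5 years and of 8.12, 8.58 and 11.6 FPKM at 5 years. HSPA1L, HSPA4L, DNAJB4, DNAJB7, DNAJB13 and DNAJA4 were lowest in replicate 1, in which the elongating spermatid markers summed to 314 FPKM. HSPA8, HSP90AB1 and HSPD1 were highest in replicate 1, in which the Sertoli cell markers summed to 254 FPKM. Of the 10 first identifiers past the unadjusted threshold, 9 had replicate 1 farthest from the 1.5-year mean (90.0%, against 68.5% of all genes tested), but these were chosen by the same values. The exception was DNAJC5, with replicate 2 farthest. Of 8 immediate early genes, which respond to handling and stress, 5 were tested. IER2 and JUN were higher (40%, against 14.2% of all genes), DUSP1 was lower (20%, against 10.9%), and EGR1 and JUNB did not pass. The 8 genes had sums of 16.5 to 18.0 FPKM at 1.5 years and of 26.04, 18.2 and 21.7 FPKM at 5 years. The part of these markers in the chaperone values was not tested.

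**Figure D4:**
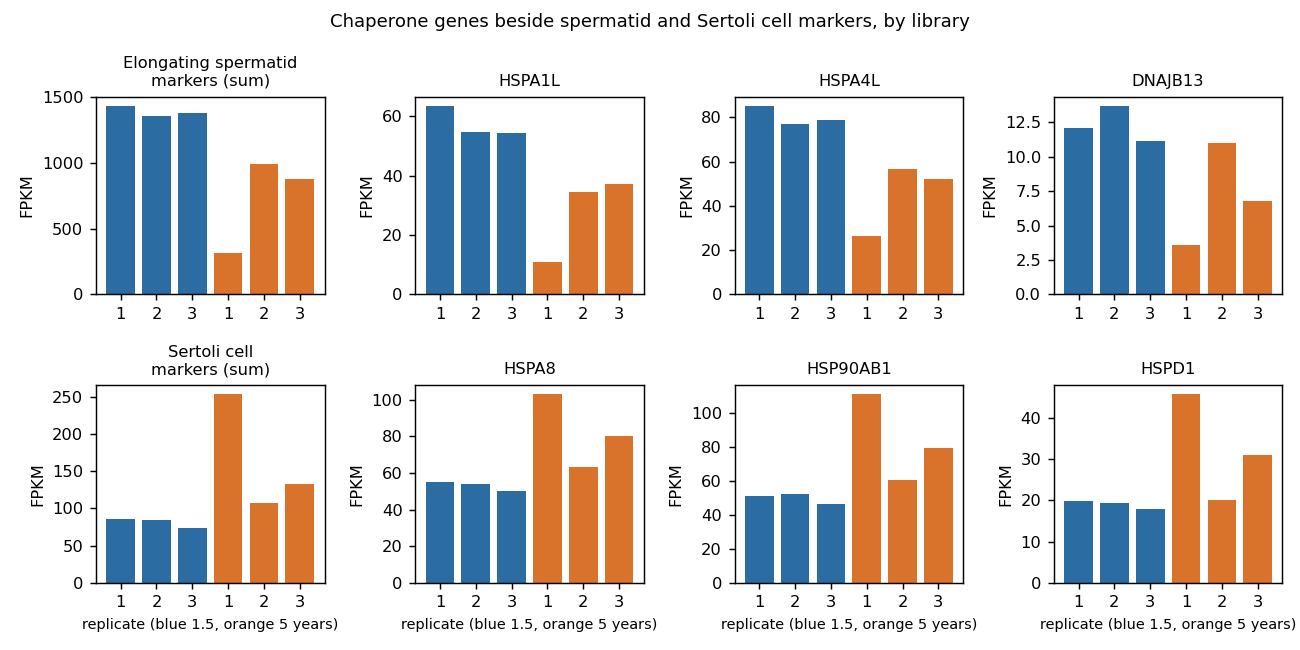
FPKM by library for 3 chaperones that were lower at 5 years beside the sum of 6 elongating spermatid markers (top), and for 3 that were higher beside the sum of 6 Sertoli cell markers (bottom). TNP1 makes up most of the spermatid sum and INHA most of the Sertoli cell sum. Blue bars are 1.5-year and orange bars 5-year replicates 1 to 3. In the top row replicate 1 at 5 years is the lowest library, and in the bottom row it is the highest.

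Cochaperones and regulators were counted from a list of 57 symbols, of which 46 had a row and 45 were tested, with HSPBP1 also among the members. There were 7 higher (15.6%) and 6 lower (13.3%) at the unadjusted threshold, close to the 14.2% and 10.9% of all genes, and 0 after adjustment. Without single libraries the counts ran from 2 (without 1.5-year replicate 1 or 5-year replicate 3) to 10 higher and from 1 (without 1.5-year replicate 1) to 8 lower. Of 12 cofactors of Hsp70, 4 were lower, 1 was higher and 7 did not pass, with a median log2 fold change of 0.03. The lower ones were BAG1, BAG4, BAG5 and SIL1, all nucleotide exchange factors, with log2 fold changes of -0.69, -0.76, -0.91 and -0.57 (unadjusted p = 0.0231, 0.0235, 0.031 and 0.0414). BAG2 was higher at 0.67 (unadjusted p = 0.00917), and the exchange factors BAG3, GRPEL1, GRPEL2 and HSPBP1 had 0.30, 0.04, 0.006 and 0.19 and did not pass. Of 17 cofactors in the group of Hsp90 and others, 5 were higher, 1 was lower and 11 did not pass, with a median of 0.18. The higher ones were AHSA1, the ATPase activator of Hsp90, at 0.38 and CHORDC1, PPID, TTC1 and TTC4 at 0.53, 0.63, 0.33 and 0.39 (unadjusted p from 0.0113 to 0.0467), and the lower one was SGTA at -0.72 (unadjusted p = 0.00621). FKBP6 and FKBP4 had -0.42 and -0.03 and did not pass.

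The heat shock transcription factors HSF1 and HSF2 had log2 fold changes of -0.05 (unadjusted p = 0.717) and -0.04 (unadjusted p = 0.819), with 26.9 to 31.2 FPKM for HSF1 over all libraries. HSF4 was higher at 1.06 (unadjusted p = 0.0296) from 0.258 to 0.393 FPKM at 1.5 years to 0.553 to 1.15 FPKM at 5 years. Its 1.5-year mean of 0.304 FPKM lay under the filter of 0.5 FPKM, so it was tested only through its 5-year values. With a minimum mean of 1 FPKM, 6 cochaperones were higher in place of 7. HSF5, a germ cell factor, had -0.35 (unadjusted p = 0.116). ODF1, a protein of the sperm tail with a small heat shock domain that is also among the spermatid markers, was lower at -1.40 (unadjusted p = 0.0378), with 8.40 to 66.4 FPKM over all libraries. CRYAB, a small heat shock protein without an HSPB symbol, had 5.92, 4.99 and 3.47 FPKM at 1.5 years and 14.3, 4.82 and 10.8 FPKM at 5 years (0.94, unadjusted p = 0.0521). The 7 subunits of the cytosolic chaperonin CCT showed no call in either direction, with log2 fold changes of -0.31 to 0.0015.

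Repeat identifiers accounted for 3 of the 13 member calls. Of the 12 repeat identifiers tested, 2 were higher (16.7%, against 14.2% of all genes) and 1 was lower (8.33%, against 10.9%). ENSBGRG00000001884, listed under HSPA6 with the GO term IgG binding, had the largest log2 fold change of the members tested with the pseudocount of 0.1, from 0.433, 0.272 and 0.567 FPKM to 2.92, 0.986 and 2.27 FPKM (log2 fold change 1.96, unadjusted p = 0.00263). With a pseudocount of 1 it had 1.05, less in size than HSPA1L at -1.20. The 1.5-year mean of ENSBGRG00000001884, 0.424 FPKM, lay under the filter of 0.5 FPKM, so it was tested only through its 5-year values. It is counted among the 6 higher members. ENSBGRG00000020117, listed under HSP90B1 with GO terms of reverse transcription, had 2.55, 2.46 and 3.33 FPKM and then 0.946, 2.36 and 1.35 FPKM (-0.88, unadjusted p = 0.0291). ENSBGRG00000006304, listed under DNAJB7 and without GO terms, had 1.50 to 1.69 FPKM and then 2.13 to 2.38 FPKM (0.48, unadjusted p = 0.0223). Neither the HSP90B1 nor the DNAJB7 repeat followed its first identifier, whose changes were 0.10 and -1.02. The second call was lost without 1.5-year replicate 1 or 3 or 5-year replicate 1 or 3 (unadjusted p = 0.0538, 0.0969, 0.0708 and 0.0768), and the third without 1.5-year replicate 2 or 3 or 5-year replicate 3 (unadjusted p = 0.073, 0.0653 and 0.0795). The third was also lost with the replicate block (unadjusted p = 0.0682) and after quantile normalization (unadjusted p = 0.0602).

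ENSBGRG00000017349, listed under HSPA1L, was the only repeat identifier with a chaperone GO term. It had 2.59, 2.64 and 2.68 FPKM at 1.5 years and 6.13, 2.497 and 5.40 FPKM at 5 years, a log2 fold change of 0.71 (unadjusted p = 0.0642) in the opposite direction to the first HSPA1L identifier. It had 0.47 without 5-year replicate 1, and it passed without 5-year replicate 2 (1.10, adjusted p = 0.0151) and with the same FPKM sum (unadjusted p = 0.0476). The identifiers of the highest level, ENSBGRG00000002496 under DNAJB14 (79.0 to 106 FPKM) and ENSBGRG00000013984 under DNAJC6 (38.7 to 63.5 FPKM), had -0.13 (unadjusted p = 0.473) and 0.24 (unadjusted p = 0.289). The first identifier of DNAJB14 had 2.76 to 3.40 FPKM, so a sum by symbol would be led by the repeat identifier. Of the 22 repeat identifiers, 3 were listed at 0 in every library.

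m6A is methylation of adenosine at the N6 position, mapped here as peaks where immunoprecipitated RNA exceeded the input. A differential m6A peak between the ages was listed for 2 of the 77 members, against 1179 of all 20953 genes (5.63%, or 9.29% of the genes tested), and for 0 of the 55 first identifiers. The first lay on ENSBGRG00000020117, the identifier under HSP90B1 with reverse transcription terms, at chr5:37456111-37456361 of LU_Bosgru_v3.0, 251 bp in exon 2 of 19. The other was assigned to ENSBGRG00000021241, listed under DNAJB2 with the GO terms GTPase activity and structural constituent of cytoskeleton, at chr2:32380161-32380819, 659 bp in exon 5 of 7 of the neighbouring gene ENSBGRG00000021450. The second identifier had 46.4, 40.6 and 40.7 FPKM at 1.5 years and 17.4, 36.7 and 31.3 FPKM at 5 years (log2 fold change -0.64, unadjusted p = 0.0536). It passed without 5-year replicate 1 (-0.32, unadjusted p = 0.0388), without 5-year replicate 2 (-0.86, unadjusted p = 0.0147) and after trimmed mean scaling (unadjusted p = 0.0387). The table gives neither a direction nor a p-value for a peak.

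Peaks of the single groups could be read for HSPA13 alone, because only 7 whole rows of each group list were used here. HSPA13 lies on the minus strand at chr1:14404460-14414915 (10456 bp). List M held 3 peaks on it, at chr1:14404509-14404757 in the 3′ UTR, chr1:14404855-14406186 in exon 5 of 6 and chr1:14406285-14409278 in exon 4 of 6, which covered 4575 bp of genome. List Y held 2 peaks, at chr1:14404509-14404954 in the 3′ UTR and chr1:14409080-14409278 in exon 4, which covered 645 bp. The shared stretch of 548 bp was 12.0% of the bases in list M and 85.0% of those in list Y. Both lists thus marked the same 3′ end, and the outer bounds of the peaks were the same on both sides.

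HSPA13 was not in the table of differential peaks. The widths count introns, so a wider peak need not be more methylated sequence. The letters M and Y stand for opposite ages in the article and in the growth protocol of the record, so the lists are named here by letter only.

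**Figure D5:**
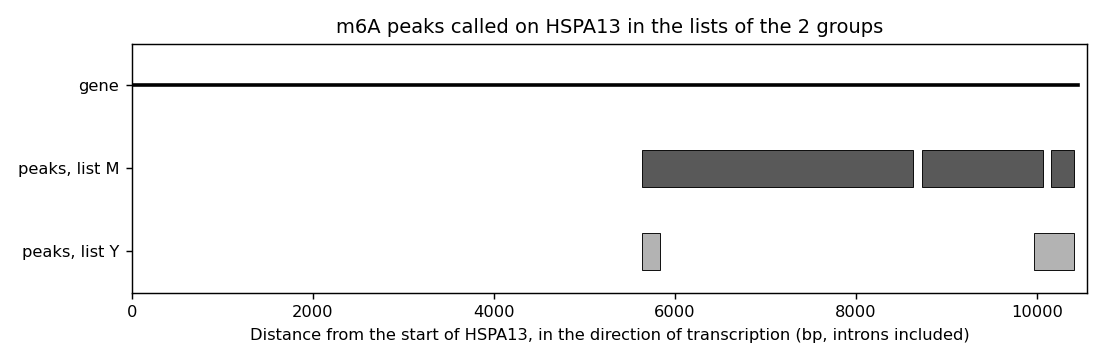
m6A peaks of the 2 group lists on HSPA13, plotted by distance in bp from the start of the gene in the direction of transcription, introns included. List M has 3 peaks that cover 4575 bp, list Y has 2 that cover 645 bp, and both sets begin at 5637 bp and end at 10406 bp.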

How the data were processed

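The members and the gene lists were chosen with earlier results of these data known. The authors deposited FPKM values for each gene in the input libraries. Their methods name Trimmomatic for trimming, SortMeRNA for the removal of rRNA, and HISAT2 (2.0.4 in the submitters' processing notes) for alignment to LU_Bosgru_v3.0, with unique alignments kept. The program behind FPKM is not given in the sources used here. Peak positions were used as deposited by the authors, who called peaks with MeTDiff in every sample against its own input and annotated them with ChIPseeker. How the replicates were joined in the group lists and the differential table is not given in the sources used here.

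The test was that of limma 3.58.1 (R 4.3.3, lmFit and eBayes with trend) for genes with a mean of at least 0.5 FPKM over 6 input libraries, on log2(FPKM + 0.1), with Benjamini-Hochberg adjustment over all genes. The pseudocount makes changes of low genes look smaller. The steps were tested on simulated data. Plots were drawn with matplotlib 3.10.9, and tables made with pandas 2.3.3, scipy 1.17.1 and numpy 2.4.6 in Python 3.11.15. Named genes were HSPA13, the 2 highest of each family, members with a differential peak, the 5 largest changes each way with no overlap, and 15 symbols known from testis, of which 10 had a row. Others were named after their values were seen. The alternatives were other pseudocounts, filters, scalings, fits, a replicate block and leaving out each library, and, after seeing the data, first identifiers only. Sequences were not used here.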

Additional observations from a re-analysis of the deposited data

How the results depend on the processing

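Of the log2 fold changes of named identifiers under the alternatives, 449 kept direction and side of the unadjusted threshold, 32 kept direction but no longer passed, 13 newly passed and 6 changed sign. The 6 were all in genes that did not pass: after quantile normalization HSPA2 had 0.045, HSPA5 0.19 and ENSBGRG00000002496 0.12, with the same FPKM sum HSPA5 had 0.075, without 1.5-year replicate 1 HSPA5 had 0.060, and without 5-year replicate 1 HSPBAP1 had 0.087. Leaving out single libraries, HSPA5 ranged from -0.128 to 0.060 and HSPBAP1 from -0.476 to 0.087. The member median of 0.04 was 0.10 with a minimum of 0.1 FPKM or no filter, 0.12 after quantile normalization, 0.16 with the same FPKM sum and -0.040 after trimmed mean scaling. Setting the same FPKM sum moved the median of all genes from 0.04 to 0.17, beside the 0.16 of the members. Over all genes the calls were 1767 higher and 1356 lower, 2429 and 1053 with the same FPKM sum, and 1379 and 1747 after trimmed mean scaling. Members higher went from 6 to 12 with the same FPKM sum, and members lower from 7 to 12 after trimmed mean scaling. Cochaperones higher were 4 in place of 7 after trimmed mean scaling. The cause of these moves beyond the scaling itself was not tested.

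Leaving out each library in turn gave 2 to 11 members higher (lowest without 1.5-year replicate 3, highest without 5-year replicate 2), 4 to 12 lower (lowest without 1.5-year replicate 1 or 3, highest without 5-year replicate 2), 0 to 11 past the adjustment (11 without 5-year replicate 2, 0 without any other), 13 to 22 without overlap on the higher side and 13 to 18 on the lower side, and a member median of -0.0099 to 0.12. The cochaperone counts ran from 2 to 10 higher and from 1 to 8 lower.

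Replicate numbers are shared by the ages, but the samples share only a number: deviations of same-numbered libraries correlated at -0.02, -0.09 and 0.01. With the replicate block, 4 cochaperones were higher in place of 7, and the member counts were 5 higher and 7 lower. With first identifiers only, 0 members had a differential peak in place of 2. The number of animals, 3 per age, and the distance between the 5-year libraries limit these comparisons.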
